A study of Mus musculus with 6 samples.

Results

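Tgfb1, Tgfb2, Tgfb3, Inhba, Tgfbr1, Tgfbr2, Acvr1b, Acvr2a and Tgfbi were followed through the cells of mouse pancreatic tumours. They were chosen by name as ligands, receptors and a target of TGF-beta and activin signalling, and are 9 of the 29781 genes listed in the data. All 9 were listed in each of the 6 libraries.

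The hosts were C57BL/6J mice, labelled wild-type, whose pancreas carried tumours of implanted KPC cells (a pancreatic cancer line of the mouse) and which were sampled 11 days after inoculation. A group of 3 mice (anti-VSIG4 1, 2 and 3) received an antibody against mouse VSIG4, named #44-anti-mVSIG4 in the labels, and the other group of 3 mice (IgG 1, 2 and 3) received IgG. VSIG4 is a complement receptor of tissue-resident macrophages. Each mouse gave 1 single-cell library, and all 6 tumours come from the same implanted line.

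TGF-beta ligands are secreted in a latent form, and once released they bind the type II receptor TGFBR2, which recruits and activates the type I receptor TGFBR1. Activin A is a dimer of the chain made by Inhba. It binds the type II receptor ACVR2A or its relative ACVR2B and then the type I receptor ACVR1B, and both routes pass to the nucleus through SMAD proteins. In pancreatic tumours the pathway is known for driving matrix production by fibroblasts and for restraining T cells and NK cells. Tgfbi is a secreted matrix protein named for its induction by TGF-beta.

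The starts of 3 ligand genes are shown because these ligands differ in the data by how many cell classes carry them. Each sequence holds the 250 bases before the RefSeq gene start on build GRCm38.p6, 5′ to 3′ on the strand of the gene, with matches to GGGCGG (the GC box core, or CCGCCC where it lies on the opposite strand) and TATAAA (the TATA box) in capitals. Tgfb1 lies at chr7:25686752-25687001 on the plus strand, Tgfb2 at chr1:186705990-186706239 on the minus strand and Inhba at chr13:16011601-16011850 on the plus strand.
Tgfb1: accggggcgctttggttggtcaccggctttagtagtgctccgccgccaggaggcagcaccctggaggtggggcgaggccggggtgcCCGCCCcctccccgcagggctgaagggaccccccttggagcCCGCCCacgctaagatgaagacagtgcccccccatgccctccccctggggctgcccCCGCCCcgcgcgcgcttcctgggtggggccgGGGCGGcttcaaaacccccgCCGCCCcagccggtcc
Tgfb2: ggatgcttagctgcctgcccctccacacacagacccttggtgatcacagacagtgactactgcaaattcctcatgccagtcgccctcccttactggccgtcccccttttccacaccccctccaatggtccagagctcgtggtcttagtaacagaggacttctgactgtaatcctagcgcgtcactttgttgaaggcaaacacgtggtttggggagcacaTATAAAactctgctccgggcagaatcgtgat
Inhba: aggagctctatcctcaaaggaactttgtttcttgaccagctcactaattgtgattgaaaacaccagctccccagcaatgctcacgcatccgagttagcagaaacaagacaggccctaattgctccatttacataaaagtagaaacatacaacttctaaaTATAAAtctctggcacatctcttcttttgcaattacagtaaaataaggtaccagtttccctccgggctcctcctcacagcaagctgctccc
The Tgfb1 window held 5 GGGCGG matches on either strand and no TATAAA. Tgfb2 had TATAAA beginning 31 bases before its start and Inhba had it 91 bases before, both without GGGCGG. Over 32851 windows of the same length, 32.7% held GGGCGG and 12.4% held TATAAA on either strand. No printed match overlaps another, and a match describes the letters, not a bound site. Of the 9 genes, 8 had a window in the RefSeq table used, and among those not printed GGGCGG was found in Acvr1b (4 matches), Acvr2a, Tgfbr1 (2 each) and Tgfbi (1).

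Of 47794 barcodes, 47603 passed the cell filters, 22747 from anti-VSIG4 tumours and 24856 from IgG tumours. Levels are given in CPM, the number of unique molecular identifiers (UMIs) of a gene for each 1000000 UMIs summed over the cells of a class in a library. The cells fell into 10 named classes with at least 20 cells in every library, each name standing for cells like that type: 15201 neutrophils, 10537 monocyte/macrophages, 6030 T cells, 2670 tumour/epithelial cells, 1258 NK cells, 1256 cDC2, 897 fibroblasts, 603 migratory DC, 455 endothelial cells and 307 plasma cells. In each class all listed markers of that class had UMIs. The classes were built without the 9 genes and without 75 further pathway genes. Depth per library ran from 7291121 to 15885215 UMIs in monocyte/macrophages and from 395966 to 740761 UMIs in migratory DC. A further 6540 cells in 3 clusters carried many transcripts of long genes, a trait of nuclei, and are called nucleus-like and kept apart from the named classes. Cells of these clusters that were themselves over 15% in genes longer than 100 kb made up 0.274%, 0.170% and 4.40% of the anti-VSIG4 libraries, against 0.391%, 14.95% and 40.2% of the IgG libraries. By their markers the 3 clusters were closest to T cells, macrophages and NK cells, although no NK marker was among the 10 leading genes of the last and no T cell marker among those of the first. Levels in these classes may leave part of the cells out. Cell labels in the files are running names, and between 3972 and 5091 of a library's labels recurred in another library. Vsig4 itself was scarce, with 0.0769, 0.105 and 0.0630 CPM in monocyte/macrophages of anti-VSIG4 tumours, against 1.85, 0.732 and 1.51 CPM in IgG tumours, from 40 UMIs in all. An antibody does not delete its target gene, and these UMIs are no check of the labels.

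Each ligand had its own pattern over the classes. Tgfb1 was carried by every class, Tgfb2 mainly by fibroblasts and at lower levels by endothelial and tumour/epithelial cells, Tgfb3 by fibroblasts and then monocyte/macrophages, and Inhba by monocyte/macrophages, fibroblasts, neutrophils and tumour/epithelial cells. For each gene the class with the highest mean CPM was tested against the next in edgeR with library as a block. Both classes were chosen by the means under test. The error after a log2 difference is an approximate standard error (SE), obtained from the estimate and its F statistic.

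**Figure D1:**
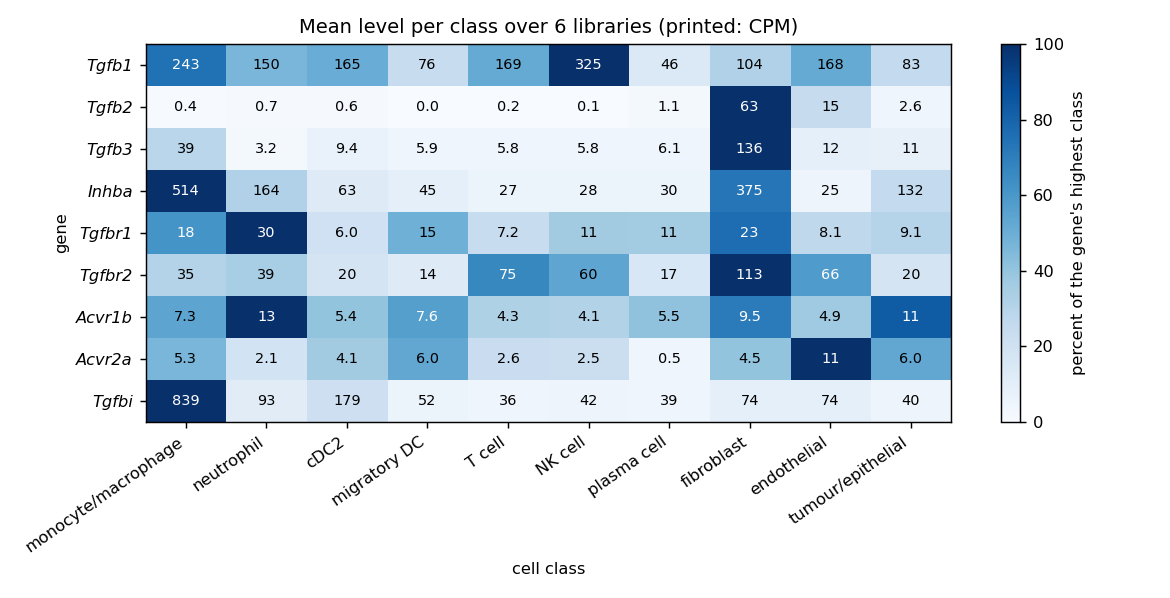
Mean level of each gene in CPM over 6 libraries (printed numbers) in the 10 named classes, shaded by the percent of the gene's highest class. Rows are read along, not against each other. Tgfb2 is dark in fibroblasts alone, at 63.4 CPM, while Tgfb1 ranges from 45.5 CPM in plasma cells to 325 CPM in NK cells.

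Tgfb1, the most widely made TGF-beta ligand, was highest in NK cells, with 356, 363 and 249 CPM in anti-VSIG4 tumours, against 429, 303 and 249 CPM in IgG tumours. Monocyte/macrophages came next, at 263, 266 and 225 CPM in anti-VSIG4 tumours, against 302, 218 and 182 CPM in IgG tumours. NK cells stood above monocyte/macrophages in 6 of 6 libraries, but the edgeR difference did not pass (log2 0.15 ± 0.11, adjusted p = 0.264; 50% of 12368 genes passed in this contrast). With the relative log expression (RLE) scaling it did pass (log2 0.25, adjusted p = 0.0399), as did an exact paired permutation test of log2(CPM + 1) over the 6 libraries (difference 0.41, two-sided p = 0.03125, the smallest it can give). T cells (169 CPM), endothelial cells (168 CPM), cDC2 (165 CPM) and neutrophils (150 CPM) followed, means over 6 libraries with SDs of 32.8, 55.6, 19.8 and 29.1 CPM that overlap. Fibroblasts (104 CPM), tumour/epithelial cells (83.0 CPM) and migratory DC (76.3 CPM) were lower, and plasma cells were last with 45.5 ± 10.5 CPM (SD, n = 6). By amount, monocyte/macrophages held 38.9% of the gene's UMIs (mean of 6 libraries). That share was 13.1% in IgG 3, where nucleus-like cells held 61.2%, and between 39.2% and 48.8% in the other 5 libraries.

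Tgfb2, a ligand of mesenchymal and epithelial tissue, was nearly confined to stroma. Fibroblasts had 49.1, 52.3 and 66.7 CPM in anti-VSIG4 tumours, against 61.4, 62.4 and 88.5 CPM in IgG tumours. Endothelial cells had 23.4, 4.57 and 4.93 CPM in anti-VSIG4 tumours, against 13.4, 9.85 and 36.4 CPM in IgG tumours. Fibroblasts were above endothelial cells in 6 of 6 libraries, and the difference passed (edgeR log2 2.33 ± 0.30, adjusted p = 1.00e-09; 36.2% of genes passed in this contrast). Tumour/epithelial cells averaged 2.58 CPM, and the other 7 classes averaged 1.13 CPM or less. Migratory DC had 0 Tgfb2 UMIs, which at this depth allows up to 0.945 CPM over the pooled libraries, a limit that covers counting error only. Fibroblasts, 897 of the 47603 cells, held 69.4% of the 858 Tgfb2 UMIs, by the mean over libraries, followed by tumour/epithelial cells with 11.95% and endothelial cells with 7.29%.

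Tgfb3 was highest in fibroblasts, with 93.5, 148 and 194 CPM in anti-VSIG4 tumours, against 90.9, 137 and 152 CPM in IgG tumours. Monocyte/macrophages had 47.3, 19.7 and 37.1 CPM in anti-VSIG4 tumours, against 31.7, 47.6 and 49.6 CPM in IgG tumours. The fibroblast level was the higher in 6 of 6 libraries (edgeR log2 1.64 ± 0.18, adjusted p = 5.08e-12; 57.3% of genes passed). Endothelial cells (11.99 CPM) and tumour/epithelial cells (11.0 CPM) did not differ beyond their spread, and neutrophils were lowest at 3.18 CPM. By amount the order was the other way round, with 46.6% of the UMIs in monocyte/macrophages and 23.0% in fibroblasts. Within the macrophages, Tgfb3 was highest in an Arg1-marked sub-cluster of 716 cells, at 81.1 CPM pooled over libraries, and a C1q-marked sub-cluster followed at 59.8 CPM.

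**Figure D2:**
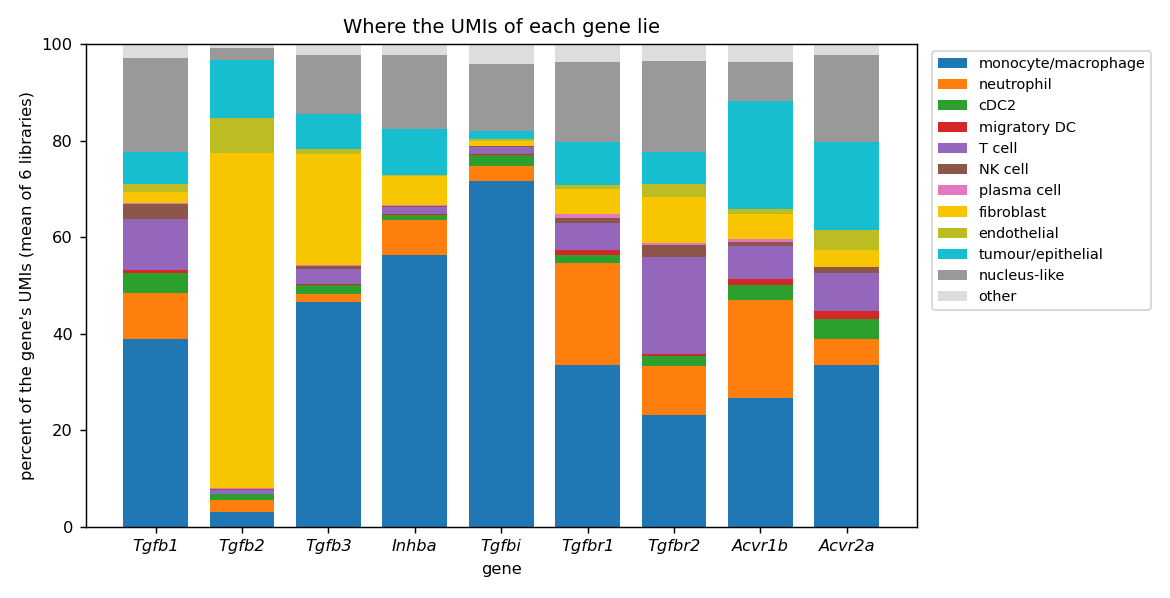
Percent of each gene's UMIs held by each class, mean of 6 libraries (y axis), with nucleus-like cells in grey and the remaining small or unnamed classes in light grey. Monocyte/macrophages hold 71.6% of Tgfbi and 56.2% of Inhba UMIs, and fibroblasts 69.4% of Tgfb2 UMIs.

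Inhba, the activin A chain, was highest in monocyte/macrophages, with 593, 563 and 707 CPM in anti-VSIG4 tumours, against 246, 471 and 502 CPM in IgG tumours. Fibroblasts had 220, 361 and 423 CPM in anti-VSIG4 tumours, against 282, 429 and 534 CPM in IgG tumours. These top classes were not separated (edgeR log2 0.56 ± 0.31, adjusted p = 0.114, higher in monocyte/macrophages in 4 of 6 libraries; the call was made only with no filter on low counts, adjusted p = 2.78e-06). Neutrophils followed at 151, 159 and 190 CPM in anti-VSIG4 tumours, against 143, 163 and 180 CPM in IgG tumours, a narrow range. Monocyte/macrophages held 65.5%, 72.2% and 70.0% of the Inhba UMIs in anti-VSIG4 tumours, against 52.8%, 49.5% and 27.1% in IgG tumours. The groups did not overlap in this share (p = 0.1 in an exact two-sided permutation test, which cannot go lower with 3 libraries a group). How often other genes stood apart in this way is not given here, and the share also carries the number of cells in each class. Monocyte/macrophages numbered 2108, 1966 and 1710 in anti-VSIG4 tumours, against 2088, 1633 and 1032 in IgG tumours. The libraries with the most nucleus-like cells, IgG 2 and IgG 3, were also those with the lowest share. In IgG 3 a single tumour/epithelial cell, described below, held 2363 of the library's 13516 Inhba UMIs. It is included in the shares of IgG 3 given here. Without nucleus-like cells the share was 71.8%, 76.2% and 81.4% in anti-VSIG4 tumours, against 59.2%, 67.1% and 36.9% in IgG tumours, still without overlap.

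Macrophage states differed in Inhba by more than an order of magnitude. The highest sub-cluster, 877 cells led by Mmp12 (a macrophage elastase), Saa3 (an acute-phase protein) and Il6 (an inflammatory cytokine), had 1455 CPM pooled over libraries. Per library it had 2514, 1529 and 1314 CPM in anti-VSIG4 tumours, against 921, 1011 and 1300 CPM in IgG tumours. A classical monocyte-like sub-cluster of 1009 cells had 685 CPM and an Arg1-marked one 482 CPM. At the other end stood 2 C1q-marked sub-clusters, at 143 and 98.5 CPM, 281 resident-type cells, led by Ccl8, Fcna and Cbr2, at 47.9 CPM, and 24 cells led by Ctsk, Mmp9 and Acp5 with 6 Inhba UMIs. No test was run between sub-clusters, and Inhba was not among the genes used to form them.

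One cell weighed on the tumour/epithelial class. These cells had 149, 69.4 and 89.7 CPM of Inhba in anti-VSIG4 tumours, against 92.6, 82.6 and 307 CPM in IgG tumours. In IgG 3, a single cell held 2363 Inhba UMIs of its 110326 UMIs, or 54.7% of the 4317 Inhba UMIs of the class in that library. Inhba was its most abundant transcript, ahead of Mt1 (a metallothionein, 1470 UMIs) and Tm4sf1 (a membrane protein of tumour and endothelial cells, 1451 UMIs). It had 83 UMIs of Krt8 and 0 of Epcam, 6 of C1qa and 4 of Col1a1, which mark epithelial cells (Krt8, Epcam), macrophages and fibroblasts. The next highest tumour/epithelial cell held 270 UMIs. Without that 1 cell the class in IgG 3 had 140 CPM.

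T cells carried little Inhba beside the myeloid classes. They had 41.4, 38.0 and 28.9 CPM in anti-VSIG4 tumours, against 20.8, 17.6 and 17.9 CPM in IgG tumours. Against monocyte/macrophages this was lower in 6 of 6 libraries (edgeR log2 -4.41 ± 0.36, T cell over monocyte/macrophage, adjusted p = 3.44e-15; 59.7% of genes passed in this contrast). Against neutrophils it was also lower in 6 of 6 libraries (log2 -2.85 ± 0.34, adjusted p = 3.46e-10; 67.4% of genes passed). NK cells, with 28.0 ± 13.5 CPM (SD, n = 6), were lower than monocyte/macrophages too (log2 -4.47 ± 0.41, adjusted p = 2.60e-13). Without the cells of highest doublet score the NK cell difference was -5.37, and that of T cells from monocyte/macrophages was -4.91. T cells, NK cells, plasma cells (30.3 CPM) and endothelial cells (25.2 CPM) did not differ beyond their spread.

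**Figure D3:**
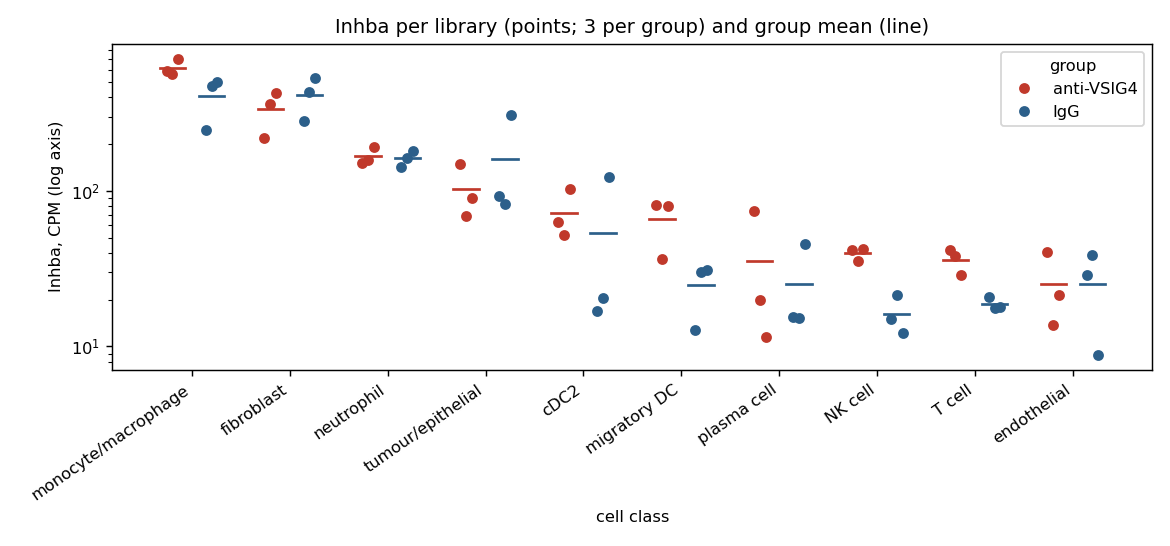
Inhba level in CPM on a log axis for each library (points) in the 10 classes, with the mean of each group of 3 libraries as a line, anti-VSIG4 left of IgG. Monocyte/macrophages lie between 246 and 707 CPM and T cells between 17.6 and 41.4 CPM.

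Macrophage transcripts were also found in T cells, and the sum of 5 of them was at a lower share of its macrophage level than Inhba. C1qa, C1qb, C1qc (complement C1q chains), Apoe and Lyz2 (lysozyme) are made by macrophages, and their sum in T cells was 6.29%, 4.97% and 3.81% of the macrophage level of the same library in anti-VSIG4 tumours, against 3.40%, 2.42% and 1.28% in IgG tumours. Inhba in T cells was 6.99%, 6.76% and 4.10% of its macrophage level in anti-VSIG4 tumours, against 8.47%, 3.75% and 3.57% in IgG tumours, above the 5-transcript sum in 6 of 6 libraries. IgG 1 and IgG 3 had the widest gaps. Single transcripts did not all lie below Inhba. C1qb in T cells was at 7.40%, 5.50% and 6.35% in anti-VSIG4 tumours, against 4.04%, 4.18% and 2.03% in IgG tumours. It was above Inhba in anti-VSIG4 1, anti-VSIG4 3 and IgG 2 and below it in the other libraries. Lyz2 was above Inhba in anti-VSIG4 1 and anti-VSIG4 3 alone, and C1qc in anti-VSIG4 3 alone. In neutrophils Inhba was 25.5%, 28.2% and 27.0% of the macrophage level in anti-VSIG4 tumours, against 57.9%, 34.7% and 35.8% in IgG tumours. The sum of the same 5 transcripts was between 2.12% and 8.07% there. Fibroblasts reached 37.1%, 64.2% and 59.9% in anti-VSIG4 tumours, against 115%, 91.1% and 106% in IgG tumours. The sum of the 5 transcripts was between 2.49% and 8.64% in fibroblasts.

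**Figure D4:**
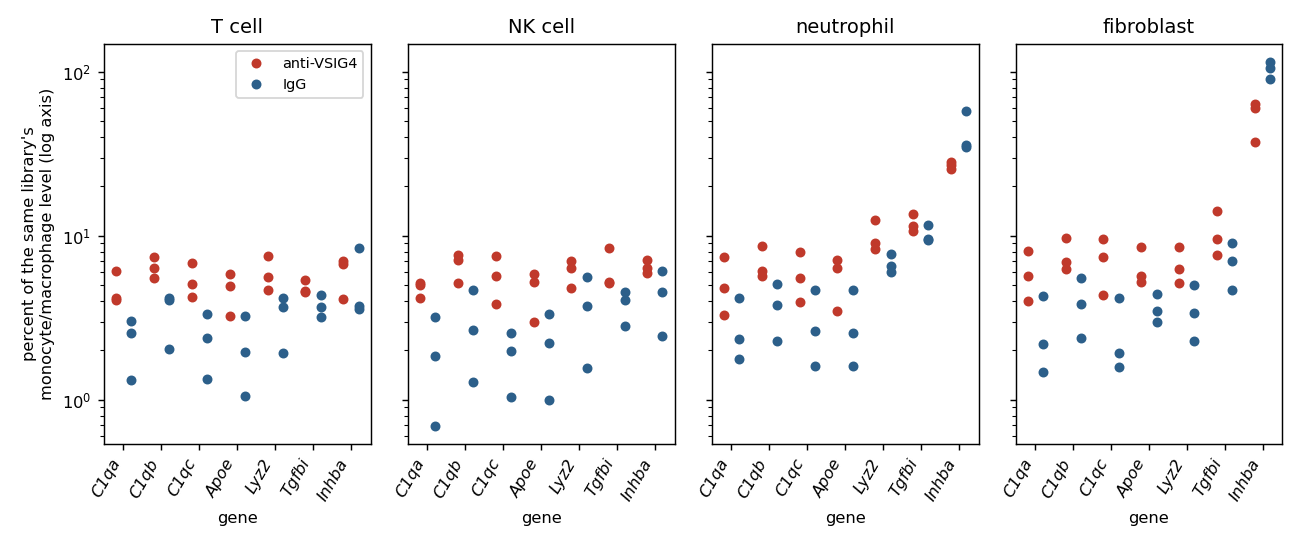
Level of 5 macrophage transcripts, Tgfbi and Inhba in T cells, NK cells, neutrophils and fibroblasts as a percent of the monocyte/macrophage level of the same library (log axis), 1 point per library, anti-VSIG4 left of IgG. Transcripts are drawn singly and their sum is not drawn. Inhba lies above the 5-transcript sum in each library of all 4 classes, at 3.57% to 8.47% in T cells, 2.43% to 7.07% in NK cells, 25.5% to 57.9% in neutrophils and 37.1% to 115% in fibroblasts. C1qb alone lies above Inhba in T cells of anti-VSIG4 1, anti-VSIG4 3 and IgG 2. In NK cells it does so in anti-VSIG4 1 and anti-VSIG4 2, and in the other libraries of both classes it lies below.

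Few T cells held any Inhba UMI. Of 6030 T cells, 5510 had 0, 428 had 1, 54 had 2 and 38 had 3 or more. The 38 cells had 7077 CPM of the 5 macrophage transcripts, pooled over libraries, against 1140 CPM in T cells without an Inhba UMI. Per library, 3 to 11 such cells had 3508, 9225 and 12687 CPM in anti-VSIG4 tumours, against 1801, 1100 and 11933 CPM in IgG tumours. After each cell was thinned to 1000 UMIs, 3.50%, 2.66% and 1.93% of T cells had an Inhba UMI in anti-VSIG4 tumours, against 2.08%, 1.75% and 1.30% in IgG tumours (8.08% on average without thinning). In B cells, taken as a class that should lack the gene, the thinned share was 2.78%, 7.32% and 3.57% in anti-VSIG4 tumours and 0% in each IgG library (4.38% on average without thinning, from 17 UMIs in anti-VSIG4 tumours and 2 in IgG tumours). The 0 of 78 thinned B cells of IgG tumours allow a share of up to 3.85%, counting error only. In neither group was a T cell share above that of B cells detectable at this depth. Median UMIs per cell were 2999.5 in T cells and 2378 in B cells. Monocyte/macrophages reached 22.5%, 25.1% and 28.9% in anti-VSIG4 tumours, against 11.6%, 21.4% and 19.7% in IgG tumours.

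Among T and NK sub-clusters, Inhba was highest in 108 cells led by the MHC class II genes H2-Ab1, Cd74 and H2-Aa (217 CPM pooled) and in 531 cells led by the neutrophil genes S100a9 and S100a8 (75.4 CPM). The remaining sub-clusters lay between 10.9 and 30.7 CPM, including CD8, CD4 helper, regulatory and gamma-delta T cells. Leaving out the 3 sub-clusters led by genes of other lineages removed 551 T cells (9.14%) and 263 (33.4%) of the T cell Inhba UMIs, a step added after seeing the data. The remaining T cells had 36.2, 27.7 and 19.0 CPM in anti-VSIG4 tumours, against 11.5, 13.6 and 9.45 CPM in IgG tumours. Their distance from monocyte/macrophages was log2 -4.89 ± 0.35 (edgeR adjusted p = 3.85e-17).

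Of the receptors, Tgfbr2, the type II receptor that binds TGF-beta, was highest in fibroblasts, with 117, 80.9 and 119 CPM in anti-VSIG4 tumours, against 139, 104 and 117 CPM in IgG tumours. T cells followed with 73.0, 71.4 and 84.5 CPM in anti-VSIG4 tumours, against 79.0, 65.4 and 74.4 CPM in IgG tumours. Fibroblasts were above T cells in 6 of 6 libraries (edgeR log2 0.64 ± 0.16, adjusted p = 4.46e-04; 62.2% of genes passed). T cells, endothelial cells (66.1 CPM) and NK cells (60.5 CPM) did not differ beyond their spread, and neutrophils (39.2 CPM) and monocyte/macrophages (34.6 CPM) were lower. Within the T cells, 2 CD8 sub-clusters had 113 and 94.8 CPM and CD4 helper-like cells 109 CPM. Among macrophages the resident-type cells had 108 CPM, above the class mean.

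Tgfbr1, the type I receptor of TGF-beta, was highest in neutrophils, with 25.9, 30.6 and 27.8 CPM in anti-VSIG4 tumours, against 25.7, 31.1 and 38.7 CPM in IgG tumours. Fibroblasts had 24.6, 20.1 and 32.8 CPM in anti-VSIG4 tumours, against 12.9, 19.8 and 27.5 CPM in IgG tumours. Neutrophils were the higher in 5 of 6 libraries (edgeR log2 0.63 ± 0.20, adjusted p = 0.00455; 73.3% of genes passed), a call lost with RLE scaling (adjusted p = 0.0605) and in the exact paired test (two-sided p = 0.0938). Monocyte/macrophages averaged 18.4 CPM, with 52.4 CPM in one C1q-marked sub-cluster and 33.5 CPM in the other. T cells (7.24 CPM) and cDC2 (6.05 CPM) were lowest.

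The activin receptors were scarce in every class. Acvr1b, the type I receptor of activin, was highest in neutrophils, with 17.6, 12.2 and 13.6 CPM in anti-VSIG4 tumours, against 17.3, 12.6 and 7.04 CPM in IgG tumours. Tumour/epithelial cells averaged 11.1 CPM and were lower than neutrophils in 4 of 6 libraries (edgeR log2 0.61 ± 0.20, neutrophil over tumour/epithelial, adjusted p = 0.00465; 78.2% of genes passed). Without anti-VSIG4 1 the call was lost (adjusted p = 0.0810), as in the exact paired test (two-sided p = 0.4375). Acvr2a, the type II receptor of activin, was highest in endothelial cells, with 14.9, 15.2 and 11.5 CPM in anti-VSIG4 tumours, against 1.91, 12.5 and 12.1 CPM in IgG tumours. These values rest on 7, 10 and 7 UMIs in anti-VSIG4 tumours, against 1, 14 and 11 in IgG tumours. The next class, migratory DC, held 18 Acvr2a UMIs in all. Its mean was 6.04 ± 6.48 CPM (SD, n = 6), and the difference did not pass (log2 0.78 ± 0.44, adjusted p = 0.134; 52.5% of genes passed) except without IgG 3 (log2 1.34, adjusted p = 0.0329). Tumour/epithelial cells (6.00 CPM) and monocyte/macrophages (5.27 CPM) followed within the spread.

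Tgfbi, the matrix protein, was by far highest in monocyte/macrophages, with 774, 1042 and 734 CPM in anti-VSIG4 tumours, against 944, 671 and 871 CPM in IgG tumours. cDC2 had 102, 176 and 136 CPM in anti-VSIG4 tumours, against 188, 186 and 289 CPM in IgG tumours. The classes were apart in 6 of 6 libraries (edgeR log2 2.19 ± 0.25, monocyte/macrophage over cDC2, adjusted p = 6.15e-10; 34.3% of genes passed). Fibroblasts, in which the gene is commonly read as a TGF-beta target, had 74.5 ± 38.5 CPM (SD, n = 6). Monocyte/macrophages held 71.6% of its UMIs, and 83.0% without nucleus-like cells. After thinning, 43.4% of monocyte/macrophages had a Tgfbi UMI (75.0% without thinning), against 12% of cDC2. Within the macrophages, Tgfbi was highest in a classical monocyte-like sub-cluster (1289 CPM) and a C1q-marked one (1058 CPM). In T cells it was 5.37%, 4.53% and 4.61% of the macrophage level in anti-VSIG4 tumours, against 3.70%, 4.36% and 3.21% in IgG tumours. The 5-transcript sum was above this in anti-VSIG4 1 and 2 and below it in the other 4 libraries.

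In all, 6 of the 9 first-against-next contrasts passed in edgeR (Tgfb2, Tgfb3, Tgfbr1, Tgfbr2, Acvr1b and Tgfbi), read against the 34.3% to 78.2% of all genes that passed in these contrasts. Genes outside the pathway with the most similar profile were found by Pearson correlation of log2(mean CPM + 1) over the 10 classes, a description in which the classes share their libraries. Tgfbi was closest to Lyz2 (r = 0.96) and Pid1 (r = 0.96), and Acvr2a to Smad1 (r = 0.96), a SMAD of the related BMP route, and Mapk3 (r = 0.95), a kinase. Inhba was closest to Lrp1 (r = 0.96), a scavenger receptor, and the gene model Gm48444 (r = 0.94). Tgfb2 was closest to Fkbp14 and Prelp (r = 0.99 and 0.98), a collagen chaperone and a matrix proteoglycan, and Tgfb3 to Gm48008 and the lipoprotein lipase gene Lpl (both r = 0.95). Tgfb1 was closest to Tra2b (r = 0.95) and Atp1b3 (r = 0.93), Tgfbr1 to Hp (r = 0.93) and Arhgap24 (r = 0.90), Tgfbr2 to Ddx50 (r = 0.92) and Adcy3 (r = 0.88), and Acvr1b to Adamtsl4 (r = 0.92) and Ptpn23 (r = 0.89).

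Of the 75 further pathway genes, fibroblasts had the highest mean level of 33 and endothelial cells of 14. The fibroblast genes included the matrix genes Col1a1 and Fn1, the genes Fst, Fstl1 and Fstl3 listed as extracellular antagonists, and the target genes Ccn2 and Tagln. Endothelial cells were highest for the co-receptor Eng, the type I receptor Acvrl1 and Lrrc32, which presents latent TGF-beta at the cell surface. Neutrophils were highest for 7, among them the SMAD co-repressors Ski and Skil. Monocyte/macrophages were highest for 3, namely Gdf15, Thbs1, which releases latent TGF-beta, and Nrros, which holds it on myeloid cells. T cells were highest for Zeb1 alone.

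None of the 9 genes passed between the treatments. Of the 90 pairs of gene and class, 60 passed the filter on low counts and were tested, and 0 passed in edgeR, with 10 at an unadjusted p under 0.05 and a lowest adjusted p of 0.441. DESeq2 called 0 as well, with 5 under 0.05 and a lowest adjusted p of 0.189. The background was as low, since 0% of genes passed in 8 classes, 0.0151% in endothelial cells and 0.00922% in neutrophils. Over all cells of a library, 9 of 9 were tested and 0 passed in edgeR (0% of all genes), with 0 at an unadjusted p under 0.05. DESeq2 also called 0 of the 9 there, with Inhba at an unadjusted p of 0.0289 (adjusted p = 0.484).

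In 9 of the 60 pairs the groups did not overlap in CPM. Inhba was higher in anti-VSIG4 tumours in 4 classes (monocyte/macrophages, T cells, NK cells and migratory DC), Tgfbr1 and Acvr1b in T cells, and Tgfbi in migratory DC. Tgfbi in cDC2 and Acvr2a in tumour/epithelial cells were lower. Among all genes tested, 7.75% did not overlap in monocyte/macrophages (3.95% higher), 7.73% in T cells (3.45% higher), 10.9% in NK cells (3.71% higher), 14.6% in migratory DC (5.24% higher), 9.23% in cDC2 (5.24% lower) and 7.57% in tumour/epithelial cells (4.82% lower). In the classes where none of the 9 stood apart the share was 9.52% in endothelial cells, 10.8% in fibroblasts, 12.1% in neutrophils and 18.8% in plasma cells. Inhba was the gene with the most such classes, 4 of the 9 in which it was tested, and its log2 change was positive in 6 of 9.

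**Figure D5:**
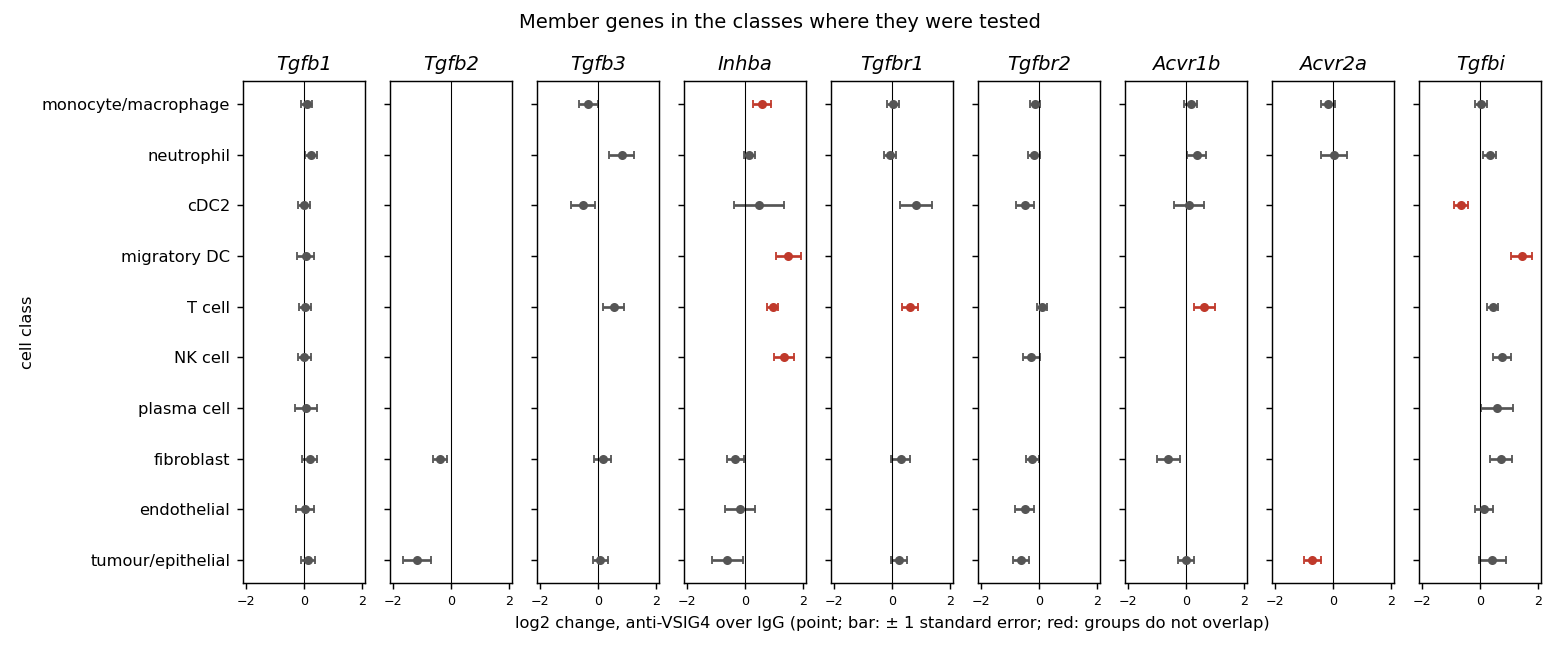
Log2 change, anti-VSIG4 over IgG, of each gene (panels) in each class where it was tested (rows), with bars of 1 SE and red points where the 3 libraries of 1 group all lie beyond those of the other. Inhba ranges from -0.61 in tumour/epithelial cells to 1.5 in migratory DC, and Tgfb1 from 0.00 to 0.25.

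Inhba in monocyte/macrophages averaged 621 ± 75.7 CPM in anti-VSIG4 tumours and 406 ± 140 CPM in IgG tumours (SD, n = 3 each), a log2 change of 0.59 ± 0.30 that did not pass (edgeR unadjusted p = 0.0839, adjusted p = 0.999). The lowest library was IgG 1, at 246 CPM, and without it the change was 0.29. In T cells the change was 0.96 ± 0.19 (edgeR unadjusted p = 3.97e-04, adjusted p = 0.758), in NK cells 1.36 ± 0.35 (adjusted p = 0.680) and in migratory DC 1.5 ± 0.45 (adjusted p = 0.441). The NK cell change rests on 90 Inhba UMIs in anti-VSIG4 tumours and 33 in IgG tumours. In anti-VSIG4 3, 3 NK cells with 3 or more Inhba UMIs held 75.5% of the 53 UMIs, 25 of them in 1 cell. The change without these 3 cells was not tested. T and NK cells of anti-VSIG4 tumours also held more of the 5 macrophage transcripts, summed, relative to macrophages, without overlap in T cells (3.81% to 6.29%, against 1.28% to 3.40%). In NK cells these were 6.15%, 5.58% and 3.60% in anti-VSIG4 tumours, against 3.65%, 2.34% and 1.02% in IgG tumours. The 10 macrophage markers, all with UMIs in T cells, summed to 1754 to 2315 CPM there in anti-VSIG4 tumours, against 810 to 1427 CPM in IgG tumours. These 10 include Ly6c2, which was also among the leading genes of CD8 T sub-clusters, so their sum in T cells does not measure macrophage RNA alone. The part of macrophage transcripts in the Inhba difference was not tested.

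With the 3 sub-clusters of other lineages left out, T cell Inhba still did not overlap, and its change was 1.29 ± 0.27 (edgeR unadjusted p = 4.42e-04, adjusted p = 0.763). The remaining T cells kept the macrophage transcripts as well, at 6.04%, 4.61% and 2.79% of the macrophage level in anti-VSIG4 tumours, against 2.96%, 1.87% and 0.677% in IgG tumours. Inhba in these cells was 6.11%, 4.93% and 2.69% of its macrophage level in anti-VSIG4 tumours, against 4.66%, 2.88% and 1.88% in IgG tumours. Migratory DC had 80.6, 36.4 and 79.4 CPM of Inhba in anti-VSIG4 tumours, against 12.7, 30.3 and 31.1 CPM in IgG tumours, from 110 and 33 UMIs. Their 10 macrophage markers overlapped between the groups, at 1353 to 1964 CPM in anti-VSIG4 tumours and 506 to 1967 CPM in IgG tumours. The 5-transcript sum was 6.71%, 5.81% and 4.63% of the macrophage level in anti-VSIG4 tumours, against 7.03%, 2.81% and 1.20% in IgG tumours. C1qa (5.97% to 7.57%, against 0.985% to 5.29%) and C1qb (7.13% to 7.48%, against 1.59% to 4.48%) did not overlap. C1qc, Apoe and Lyz2 overlapped. The part of these transcripts in the migratory DC difference was not tested.

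The other Inhba sources overlapped. The log2 change was -0.34 ± 0.29 in fibroblasts, 0.15 ± 0.18 in neutrophils and -0.61 ± 0.52 in tumour/epithelial cells. Without the single Inhba-rich cell, an alternative added after seeing the data, the tumour/epithelial value was -0.01 ± 0.31. In cDC2 the libraries spread widely, with 63.1, 52.2 and 102 CPM in anti-VSIG4 tumours, against 16.8, 20.6 and 124 CPM in IgG tumours. Over all cells Inhba stood at 281, 261 and 405 CPM in anti-VSIG4 tumours, against 161, 283 and 287 CPM in IgG tumours (edgeR log2 0.63 ± 0.29, adjusted p = 0.60), a value that also carries the mix of classes. The IgG 3 level includes the single Inhba-rich cell, with 2363 of that library's 13516 Inhba UMIs.

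Levels of the 3 TGF-beta ligands overlapped between the treatments in every class where they were tested. Tgfb1 had log2 changes between 0.00 and 0.25 in the 10 classes, the largest 0.25 ± 0.22 in neutrophils. Tgfb2 had a log2 change of -0.37 ± 0.24 in fibroblasts and of -1.16 ± 0.48 in tumour/epithelial cells, there with 0.98, 2.61 and 1.37 CPM in anti-VSIG4 tumours, against 1.98, 3.85 and 4.70 CPM in IgG tumours (edgeR unadjusted p = 0.0397, adjusted p = 0.998). The tumour/epithelial Tgfb2 values rest on 20 UMIs in anti-VSIG4 tumours and 111 in IgG tumours. The single Inhba-rich cell of IgG 3 held 13 of the 66 in that library. Without it, an alternative added after seeing the data, the Tgfb2 change was -1.03 ± 0.47 (edgeR unadjusted p = 0.0573). For Tgfb3 the change was 0.16 ± 0.29 in fibroblasts and -0.33 ± 0.33 in monocyte/macrophages.

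The type I receptors were scarce in T cells, and both stood apart by treatment there without passing. Tgfbr1 had 9.36, 8.25 and 8.60 CPM in T cells of anti-VSIG4 tumours, against 5.68, 5.21 and 6.30 CPM in IgG tumours (edgeR log2 0.62 ± 0.27, unadjusted p = 0.0416, adjusted p = 1.00). Acvr1b had 5.12, 4.85 and 5.73 CPM there in anti-VSIG4 tumours, against 3.79, 4.01 and 2.52 CPM in IgG tumours (log2 0.63 ± 0.36, unadjusted p = 0.105). Tgfbr2 in T cells overlapped and its change was 0.08 ± 0.17. The Tgfbr2 change was below 0 in the other 7 classes tested, down to -0.62 ± 0.29 in tumour/epithelial cells, and none passed. Over all cells, Tgfbr2 did not overlap, with 40.5, 41.7 and 38.7 CPM in anti-VSIG4 tumours, against 46.3, 48.5 and 95.4 CPM in IgG tumours, where 14.6% of genes did not overlap (12.5% lower). The highest value, in IgG 3, came with 234 CPM in its nucleus-like cells, which held 64.5% of that library's Tgfbr2 UMIs. Acvr2a in tumour/epithelial cells had 3.33, 5.74 and 4.65 CPM in anti-VSIG4 tumours, against 5.93, 8.39 and 7.98 CPM in IgG tumours (edgeR log2 -0.72 ± 0.30, adjusted p = 0.998).

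Tgfbi had log2 changes of opposite sign in the dendritic cell classes, neither past the threshold. Migratory DC had 75.2, 55.3 and 94.1 CPM in anti-VSIG4 tumours, against 30.8, 20.2 and 35.5 CPM in IgG tumours (edgeR log2 1.43 ± 0.36, unadjusted p = 0.00165, adjusted p = 0.441). cDC2 gave log2 -0.66 ± 0.24 (unadjusted p = 0.0147, adjusted p = 0.999). In its main source, the monocyte/macrophages, the change was 0.02 ± 0.19. NK cells (0.76 ± 0.31) and T cells (0.43 ± 0.19) gave positive values, beside the macrophage transcripts given above. In migratory DC, C1qa and C1qb were also higher relative to macrophages in anti-VSIG4 tumours, while the 5-transcript sum overlapped. The part of macrophage transcripts in the Tgfbi changes was not tested.

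Of the 75 further pathway genes, 0 passed in edgeR in either direction in any class, as in the background, and between 18 in plasma cells and 66 in fibroblasts were tested. In fibroblasts, 5 of the 29 tested TGF-beta target genes were higher in anti-VSIG4 tumours without overlap and 1 was lower, where 5.85% and 5% of all genes tested did so. The median log2 change of those 29 was 0.27, against 0.01 over all genes tested there. The 3 with the smallest p among all pathway genes there were Tagln and Acta2, which code for contractile proteins of activated fibroblasts, and Timp3, an inhibitor of matrix proteases. Tagln had 2832, 2013 and 2540 CPM in anti-VSIG4 fibroblasts, against 1276, 1169 and 1040 CPM in IgG fibroblasts (log2 1.04 ± 0.21, edgeR adjusted p = 0.304). Acta2 had 1016, 1171 and 887 CPM in anti-VSIG4 fibroblasts, against 666, 327 and 386 CPM in IgG fibroblasts (log2 1.12 ± 0.28, adjusted p = 0.430). Timp3 gave 0.88 ± 0.25 (adjusted p = 0.556). For these 3 genes the groups did not overlap, with the anti-VSIG4 libraries the higher.

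The same rule named Fn1 (fibronectin, log2 0.91 ± 0.26), Tgif1 (a SMAD co-repressor, 0.62 ± 0.20) and Thbs1 (0.86 ± 0.28) in T cells, where the target genes had a median change of 0.14 over 23 tested, against -0.01 over all genes. Fn1 and Thbs1 averaged 37.3 and 149.9 CPM in T cells but 560 and 1345 CPM in monocyte/macrophages. The 5 macrophage transcripts were in sum higher in T cells of anti-VSIG4 tumours without overlap, as given above for Inhba. Their part in these changes was not tested. In endothelial cells it named Cdkn1a (a cell-cycle inhibitor, 0.63 ± 0.23), Ppm1a (a SMAD phosphatase, 0.81 ± 0.34) and Rgs1 (0.86 ± 0.38), with a target median of 0.27 over 24 tested, against -0.02. Monocyte/macrophages gave Eng (-0.56 ± 0.20), Id1 (0.93 ± 0.37) and Ltbp3 (a latent TGF-beta binding protein, -0.43 ± 0.22), with a target median of 0.03 over 27 tested, against 0.00. Neutrophils gave Zeb1 (-0.47 ± 0.16), Id1 (0.95 ± 0.34) and Fn1 (0.63 ± 0.28). Tumour/epithelial cells gave Fst, the activin antagonist follistatin, with 21.9, 32.6 and 18.3 CPM in anti-VSIG4 tumours, against 34.3, 54.3 and 38.6 CPM in IgG tumours (log2 -0.80 ± 0.26, edgeR adjusted p = 0.998). Tagln (2.48 ± 0.85) and Thbs1 (0.83 ± 0.34) were the others there, with Tagln in anti-VSIG4 2 at 55.1 CPM beside 11.2 and 4.37 CPM in the other anti-VSIG4 libraries and 3.42 to 6.26 CPM in IgG libraries.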

How the data were processed

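The deposited files held UMI counts per gene and cell for 6 libraries, made by the authors with PISA 1.0 per the file headers. STAR and Seurat 4.11 are named in the submitters' processing notes, with no role. The sources used here give neither genome build nor annotation, and coordinates come only from RefSeq on GRCm38.p6.

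Cells with at least 500 UMIs, 300 genes and at most 20% mitochondrial UMIs were kept. They were clustered with scanpy 1.11.5 and leidenalg 0.10.2 (Python 3.11.15, seed 0) without the 9 genes and the pathway lists, and clusters were named from marker lists. T/NK and macrophage sub-clusters were made with Seurat 5.3.0, after integration of the libraries and without the same genes. Scrublet called 0 doublets, so no cell was removed as one, and leaving out the 6% of cells with the highest scores was an alternative. The 9 genes and all lists were chosen with earlier results of these data known.

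Each class holding 20 or more cells of every library was summed to 1 count column per library and tested with edgeR 4.0.16 (R 4.3.3; TMM scaling, filterByExpr, robust quasi-likelihood, Benjamini-Hochberg adjustment at 0.05 over all genes tested). Treatment fits were unblocked, and class contrasts came from 1 model with library as a block. The code was tested on simulated data. Per-library depth ran from 26606234 to 47221033 UMIs. Intervals and floors (3 counts) cover counting error only. That the mouse is the replicate follows the labels.

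Genes named were the 9, Vsig4, in each of 6 classes where no pathway gene passed the 3 of lowest p that reached 20 CPM, and for each of the 9 the 2 genes with the most similar class profile. Alternatives were DESeq2 1.42.0, RLE scaling, no filter, each library left out, the replicate block, libraries grouped by nucleus-like cells (over 1% or not) as a covariate or alone, clustering with the 9 genes, and unthinned shares.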

Additional observations from a re-analysis of the deposited data

Results flagged for a closer look

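The treatment difference of Tgfbi ran in opposite directions in both dendritic cell classes. The anti-VSIG4 minus IgG difference was 1.35 in migratory DC and -0.68 in cDC2 on the log2(CPM + 1) scale, so the classes differed by 2.03. The pair was chosen because the libraries did not overlap in either class and the signs were opposite, and the difference was not tested. UMIs from genes longer than 100 kb made up 4.52%, 4.85% and 6.84% of migratory DC UMIs in anti-VSIG4 tumours, against 5.33%, 9.18% and 14.2% in IgG tumours. In cDC2 they made up 3.67%, 3.73% and 5.06% in anti-VSIG4 tumours, against 4.08%, 5.30% and 5.27% in IgG tumours. Tgfbi in migratory DC was 9.72%, 5.31% and 12.8% of its macrophage level in anti-VSIG4 tumours, against 3.27%, 3.01% and 4.07% in IgG tumours. C1qa and C1qb were also higher there relative to macrophages in anti-VSIG4 tumours, while the 5-transcript sum overlapped. The part of long genes and of macrophage transcripts in the difference was not tested.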

How the results depend on the processing

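The class contrasts of Inhba in T and NK cells passed under every alternative run, with T cells against monocyte/macrophages between -4.52 and -4.27 with each library left out and -4.91 without the highest doublet scores. NK cells gave -4.57 to -4.23 with each library left out and -5.37 without the highest doublet scores, against -4.47 as reported. Over the source classes, 91 recomputed values stayed on their side of the threshold, 4 newly passed and 4 no longer passed. Of the treatment values of the 9 genes, 874 kept sign and side, 96 that were never called changed sign, and 4 newly passed.

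The count of genes called between treatments over the 10 classes, 2 as reported, was 100 with DESeq2, 691 with no filter, 109 with the replicate block, 31 with library kind as a covariate, 233 in the few-kind libraries alone (anti-VSIG4 1 and 2, IgG 1) and 600 in the many-kind libraries alone (anti-VSIG4 3, IgG 2 and 3). With 1 library left out it ran from 0 (without anti-VSIG4 2 or IgG 3) to 418 (without IgG 1), with 28 without anti-VSIG4 3 and 14 without IgG 2. Over all cells, 0 as reported, it was 19 with DESeq2, 5 and 37 in the few-kind and many-kind libraries alone, and from 0 to 135 with 1 library left out, the highest without IgG 1. The lone libraries in these fits were taken to vary like the others.

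Of the 9 genes, 0 were called as reported. In each of these settings 1 was called: Inhba in T cells with no filter (log2 0.98, edgeR adjusted p = 0.0155), Inhba in cDC2 in the few-kind libraries (1.82, 0.00217), Tgfbi in tumour/epithelial cells in the many-kind libraries (1.03, 0.0279) and Tgfbi in migratory DC without IgG 1 (1.53, 0.0442), so with 1 library left out the count was 0 to 1. The cause of these moves was not tested. Inhba in monocyte/macrophages ran from 0.29 to 0.78 with 1 library left out and was 0.93 with library kind as a covariate (adjusted p = 0.159).

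The Tgfbi share in monocyte/macrophages was 83.0% without nucleus-like cells, against 71.6% with them. Unthinned, 41.7% of monocyte/macrophages and 8.08% of T cells had an Inhba UMI, against 21.6% and 2.20% thinned.

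Deviations of log2(CPM + 1) from the group mean, over genes averaging at least 20 CPM, were correlated between same-numbered libraries. Over all cells the values were 0.303, -0.382 and 0.179 for numbers 1, 2 and 3, and 3 of 6 libraries correlated best with their own number. This count was 2 in monocyte/macrophages, 3 in neutrophils and 4 each in T cells and fibroblasts. Number 2 was below 0 in all 4 classes (-0.328 to -0.0223), and numbers 1 and 3 lay between 0.363 and 0.487. The replicate numbers were not taken to pair the mice. The replicate block called 0 of the 9 genes.

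Depth limits the rare genes: 30 of the 90 pairs of gene and class fell under the filter. With 3 mice a group no exact two-sided permutation test between the treatments can go below 0.1. Cell classes were rebuilt here, and nucleus-like cells, most of them in IgG libraries, stand apart from the named classes.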

Other observations

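Cell classes too small for a fit also carried the ligands. Acinar-like cells, the enzyme-secreting cells of the pancreas, had 90.4, 65.9 and 47.7 CPM of Inhba in anti-VSIG4 tumours, against 164, 181 and 207 CPM in IgG tumours. These values rest on 17 and 103 UMIs and on 6 to 35 cells a library, and no model was fitted. B cells had 70.6, 98.8 and 98.9 CPM of Tgfbr2 in anti-VSIG4 tumours, against 153, 127 and 68.0 CPM in IgG tumours, and the groups overlapped. Tgfb2 had 0 UMIs in both classes.

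Inhba UMIs were unevenly held within the classes that carried them. Of 10537 monocyte/macrophages, 6169 had 0 and 2297 had 3 or more, and the 2297 held 92.6% of the UMIs. Of 15201 neutrophils, 13326 had 0 and 488 had 3 or more, which held 63.3%. Among 897 fibroblasts, 199 with 3 or more UMIs held 92.4%.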
